A study of Homo sapiens with 11 samples.

Results

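The AP-1 transcription factors were examined in MDA-MB-231, an established human triple-negative breast cancer cell line, in wild-type (WT) cells and in cells depleted of the histone variant mH2A1.1 (mH2A1.1 KD). The members are 9 of the 23167 genes in the count tables: JUN, JUNB and JUND of the JUN family, FOS, FOSB, FOSL1 and FOSL2 of the FOS family, and the related factors ATF3 and BATF3. They were taken by symbol, but the family was chosen by RNA-seq differences between WT and mH2A1.1 KD cells that were already known, and JUND was set against the rest for the same reason. Differences of the members in that contrast are therefore given as description, without p-values, and where members are counted among the calls of a test across all genes, the count is a description too and supports nothing.

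RNA-seq covered 2 WT and 2 mH2A1.1 KD samples, collected at day 3 after transfection and made from total RNA. KD cells received siRNA directed at mH2A1.1 at 11 nM, whereas WT cells received the transfection reagent INTERFERin alone, so depletion of mH2A1.1 and the presence of an siRNA cannot be told apart. mH2A1 is spliced into the forms mH2A1.1 and mH2A1.2. Chromatin immunoprecipitation followed by sequencing (ChIP-seq) of WT cells gave 1 library for mH2A1.1, made with a custom polyclonal antibody, and 1 library for total mH2A1, and neither has a replicate error. The labels do not say that replicates came from separate cultures, so the errors given here measure only the spread between these samples.

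Reads counted on genes summed to between 2309549 and 9794674 per library, with the lowest total in KD replicate 2. In the paper's supplement, KD replicate 2 also had the lowest share of uniquely mapped reads of the RNA-seq libraries. That library held 30 counts on chromosome 21 and 0 on chromosomes 22 and X, so the 1722 genes of these chromosomes were left out, and no AP-1 member lies there. Levels of each gene are given as counts-per-million (CPM), scaled with edgeR's TMM factors. Across genes, which are not independent replicates, log2 CPM had a Pearson's r of 0.994 within the WT pair and 0.959 within the KD pair. Chi-square per degree of freedom over gene counts was 3.06 within the WT pair and 22.1 within the KD pair. MACROH2A1, the gene that encodes mH2A1, was at 384 and 393 CPM in WT and at 273 and 300 (299.7) CPM in KD, a log2 fold change of -0.44 (standard error 0.173), and reads of both splice forms enter this count. Of the 8 markers of mesenchymal-like breast cancer lines, 7 were tested, and VIM was at 2312 CPM or more in each library. DESeq2 called VIM and S100A4 of them higher in KD, at log2 fold changes of 0.66 and 0.88, and the fit with GC and length offsets described below called none. Of 7 luminal breast markers, ESR1 and PGR had 0 counts in all libraries, while the summed level of the list was between 300.3 and 330 CPM in WT and between 527 and 704 in KD, mostly from KRT19, which was called higher in KD by DESeq2 and with the offsets (log2 fold changes 1.04 and 0.59). VIM, S100A4 and KRT19 were picked from their lists after their values were seen. The part of these markers in the results below was not tested.

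AP-1 factors bind DNA as dimers of basic leucine zipper proteins. JUN proteins can pair with each other or with FOS proteins, FOS proteins need a partner, and ATF3 and BATF3 pair with JUN proteins. Several of the genes are immediate early genes, whose transcription is switched on within minutes of growth factor or stress signals that reach them through MAP kinases. FOSL1 is known for high levels in triple-negative breast cancer lines, and JUND is known for a steadier level than JUN and JUNB in resting cells.

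FOSL1 was the most abundant AP-1 transcript in WT cells. Levels are compared between genes as transcripts-per-million (TPM), which divides each count by the summed exon length of its gene. Each library is then scaled by its own sum of these per-length counts. FOSL1, which encodes FRA-1, was at 1183 ± 20.8 TPM in WT (SD, n = 2), 3.95 times the level of FOS, the prototype of its family, at 299.8 ± 1.65 TPM. FOSL2, which encodes FRA-2, followed at 224 ± 4.51 TPM, JUN at 200.5 ± 9.19 TPM, ATF3 at 176 ± 8.16 TPM, and FOSB at 164 ± 2.69 TPM. The lower end was formed by JUND at 110.0 ± 1.42 TPM, JUNB at 87.0 ± 17.7 TPM and BATF3 at 10.1 ± 0.718 TPM. No range of the 2 WT libraries overlapped that of its neighbor in this order, though the closest neighbors, ATF3 and FOSB, differed by only 1.07 times. The middle of the order depended on gene length. With the longest transcript as length, ATF3 at 238 TPM stood above FOSB at 172, FOSL2 at 170 and JUN at 159, and FOSL1, FOS, JUND, JUNB and BATF3 kept their places. On the summed exon length, 8 of the members were in the upper part of the tested genes, from the 75.4th percentile for JUNB to the 99.5th for FOSL1, and BATF3 was at the 19.6th percentile.

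JUND was higher in both KD libraries than in both WT libraries. JUND encodes a JUN protein from a gene with 1 exon (ENSG00000130522; GRCh38 coordinates: chromosome 19, 18279694 to 18281622, minus strand). Its counts were 375 and 314 in WT and 400 and 275 in the less deeply sequenced KD libraries, which gave 39.4 and 41.2 CPM in WT and 75.5 and 130 CPM in KD. The WT values lay close together, while the KD values lay apart, with KD replicate 2 the highest. The fitted log2 fold change was 1.33 (standard error 0.276), or 2.51-fold, which placed JUND at the 99.4th percentile of the 10963 genes tested. Against the WT mean, KD replicate 1 alone stood at 0.90 and KD replicate 2 at 1.69 on the log2 scale. In bulk RNA, a difference in every cell and a difference in some of the cells cannot be told apart.

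The other JUN genes differed less. JUN (ENSG00000177606; chromosome 1, 58776845 to 58784048, minus strand), the founding member of the family, was at 132 and 144 CPM in WT and at 160.4 and 252 CPM in KD, with a log2 fold change of 0.57 (standard error 0.246). Both KD libraries were above both WT libraries, but KD replicate 1 by little, at 0.22 on the log2 scale above the WT mean. JUNB (ENSG00000171223; chromosome 19, 12791486 to 12793315, plus strand), which encodes a JUN protein with weaker transactivation than JUN, was at 25.5 and 35.1 CPM in WT and at 25.3 and 37.3 CPM in KD. Its groups overlapped, and its log2 fold change was 0.01 (standard error 0.274). TPM scales each library by its sum of per-length counts and does not use TMM factors. By TPM, JUNB was slightly lower in KD, at 74.5 and 99.5 TPM in WT and 69.2 and 74.2 TPM in KD. The parts of these steps in the difference from CPM were not separated. JUNB shares 259 exon bases with HOOK2 on the opposite strand. The libraries were stranded and HTSeq was run with its default options, and no strand option is named, so the JUNB count is uncertain as far as reads of HOOK2 entered it.

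FOS and FOSB were lower in both KD libraries. FOS (ENSG00000170345; chromosome 14, 75278826 to 75282230, plus strand) was at 180 and 183 CPM in WT and at 102 and 145 CPM in KD, with a log2 fold change of -0.56 (standard error 0.216). FOSB (ENSG00000125740; chromosome 19, 45467995 to 45475179, plus strand), the FOS relative that is also induced as an immediate early gene, was at 172 and 173 CPM in WT and at 87.5 and 117 CPM in KD, with a log2 fold change of -0.77 (standard error 0.204). For both genes KD replicate 1 was the lowest library, and the WT libraries were nearly equal.

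FOSL1 and FOSL2 showed small differences of opposite sign. FOSL1 (ENSG00000175592; chromosome 11, 65892049 to 65900573, minus strand) was at 413 and 435 CPM in WT and at 472 and 605 CPM in KD, with a log2 fold change of 0.34 (standard error 0.195). FOSL2 (ENSG00000075426; chromosome 2, 28392448 to 28417317, plus strand) was at 305 and 305 CPM in WT and at 256 and 290 CPM in KD, with a log2 fold change of -0.16 (standard error 0.176). Neither pair of groups overlapped in CPM. In TPM the FOSL1 groups did overlap, at 1169 and 1198 TPM in WT and 1255 and 1168 TPM in KD. TPM and CPM scale the libraries by different sums, as described for JUNB, and the cause of this overlap was not tested.

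ATF3 had the lowest log2 fold change of the family. ATF3 (ENSG00000162772; chromosome 1, 212565334 to 212620777, plus strand), a stress-induced factor that can repress transcription, had 1295 and 997 counts in WT and 204 and 92 counts in KD, or 136 and 131 CPM against 38.5 and 43.4 CPM. The 2 KD libraries lay close together and far below WT. The log2 fold change was -1.71 (standard error 0.185), so WT was 3.28-fold above KD, and ATF3 was at the 0.137th percentile of the genes tested. BATF3 (ENSG00000123685; chromosome 1, 212686417 to 212699840, minus strand), a factor best known from dendritic cells, had between 12 and 44 counts per library. It was at 4.62 and 5.25 CPM in WT and at 3.40 and 5.66 CPM in KD, its groups overlapped, and a difference was not detectable at this depth (log2 fold change -0.24, standard error 0.351).

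**Figure D1:**
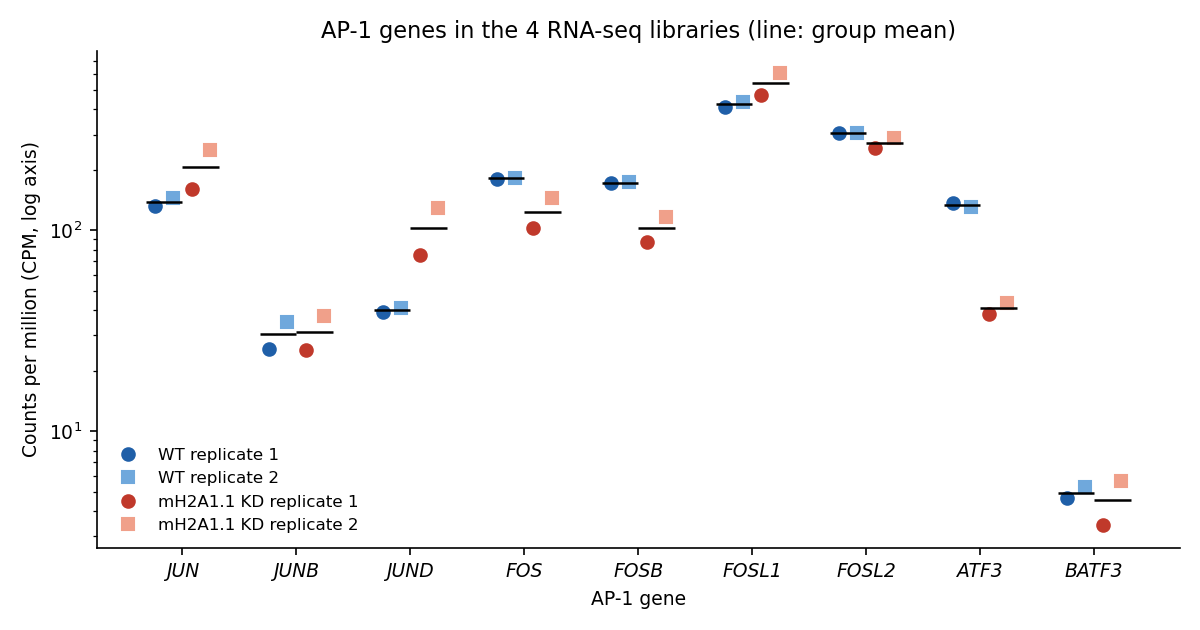
CPM (log axis) of each AP-1 gene in the 4 RNA-seq libraries, with circles for replicate 1, squares for replicate 2 and lines for group means. JUND stands at 39.4 and 41.2 CPM in WT against 75.5 and 130 in KD, and ATF3 at 136 and 131 against 38.5 and 43.4.

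All 9 members passed the filter on low counts. By CPM, 3 members (JUN, JUND and FOSL1) were higher in both KD libraries, where 32.5% of the tested genes were, and 4 (FOS, FOSB, FOSL2 and ATF3) were lower in both, where 32.4% were. A fold change over 1.5 was seen for JUND among the higher members, beside 12.9% of all tested genes, and for FOSB and ATF3 among the lower members, beside 12.7%. Calls required more than a 1.5-fold change together with an adjusted p under 0.1. By these limits, the quasi-likelihood test of edgeR called 0 members and 0% of the 10963 genes, with 4 members and 2540 genes (23.2%) at an unadjusted p under 0.05. DESeq2 at the same thresholds called 3 members, JUND higher and FOSB and ATF3 lower, beside 11.3% of the 7765 genes to which it gave an adjusted p (5.52% higher and 5.73% lower). These counts describe genes chosen with this contrast known, and BATF3 received no adjusted p from DESeq2.

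Set against its family, JUND was the seventh transcript by mean TPM in WT and the third in KD. The order in KD is given on summed exon length only and was not repeated with the longest transcript. Its log2 ratio to the geometric mean CPM of the other 8 members was -1.31 and -1.35 in WT and 0.11 and 0.44 in KD. JUND was thus below this mean in both WT libraries and above it in both KD libraries. The mean is not divided by gene length and is lowered by BATF3, the member with the fewest counts. In CPM, JUND stayed below JUN, FOS, FOSL1 and FOSL2 in both KD libraries, and below FOSB in KD replicate 1. The median log2 fold change of the other 8 members was -0.20, and JUND exceeded it by 1.53. All tested genes had a median of 0.01 (0.0083). The log2 ratio of JUND to JUN, the member with the next highest log2 fold change, was -1.74 and -1.81 in WT and -1.09 and -0.96 in KD. That of JUND to ATF3 had the largest gap between the groups, from -1.79 and -1.67 in WT to 0.97 and 1.58 in KD. Each of the 8 pairwise ratios was higher in both KD libraries than in both WT libraries, and these ratios all share the values of JUND.

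**Figure D2:**
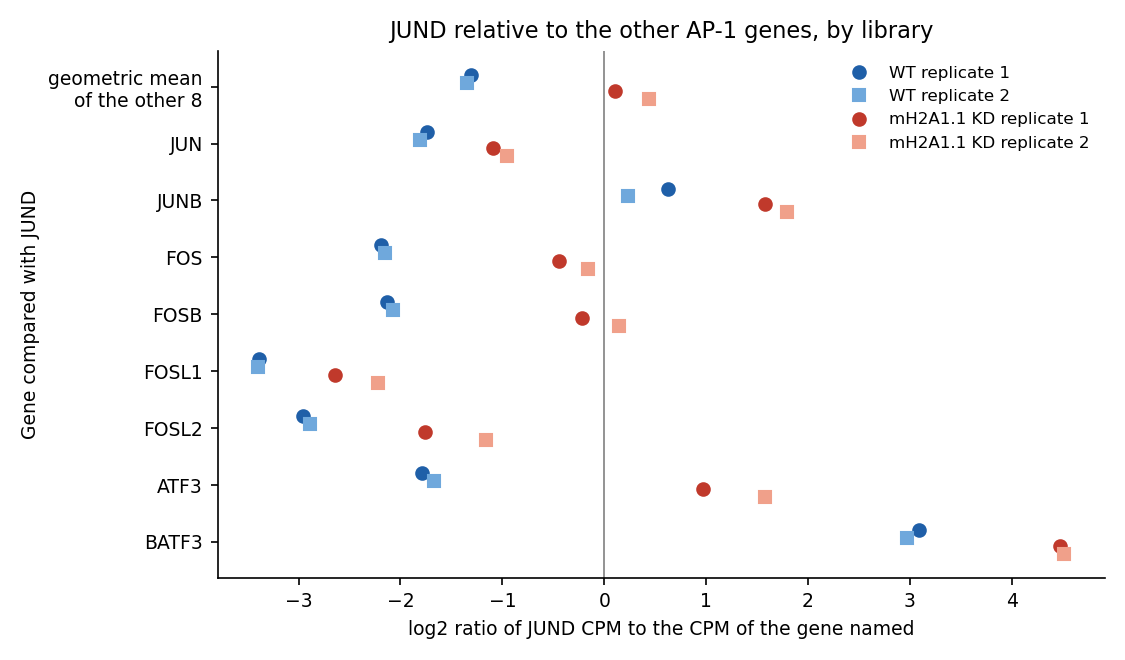
Log2 ratio of JUND CPM to the geometric mean of the other 8 AP-1 genes and to each of them (x axis), with 4 points per gene, by library. All KD points lie to the right of the WT points of the same gene, from -1.31 and -1.35 to 0.11 and 0.44 for the geometric mean.

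The summed level of the 9 genes was 2432 and 2478 TPM in WT and 2216 and 2178 TPM in KD. In CPM, which is scaled with TMM factors and not divided by length, the sum was between 1408 and 1454 in WT. It was between 1221 and 1625 in KD, so the groups overlapped. FOSL1 made up 48.1% and 48.3% of the summed TPM in WT and 56.6% and 53.6% in KD. The share of JUND was 4.48% in each WT library and 8.85% and 11.3% in KD, whereas ATF3 was at 7.47% and 6.86% in WT and at 2.18% and 1.82% in KD. The share of FOS was 12.4% and 12.1% in WT and 7.27% and 7.61% in KD. The JUN genes together were at 378 and 418 TPM in WT and at 487 and 573 TPM in KD, and the FOS genes together at 1863 and 1880 TPM in WT and at 1674 and 1558 TPM in KD. These sums by family are given in TPM only, with its own scaling of each library and without TMM factors. On summed exon length, JUN was the second most abundant member in KD, at 238 ± 22.3 TPM, followed by JUND at 221 ± 34.7 TPM (SD, n = 2). The KD ranges of JUN and JUND overlapped, as did those of FOS and FOSL2.

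**Figure D3:**
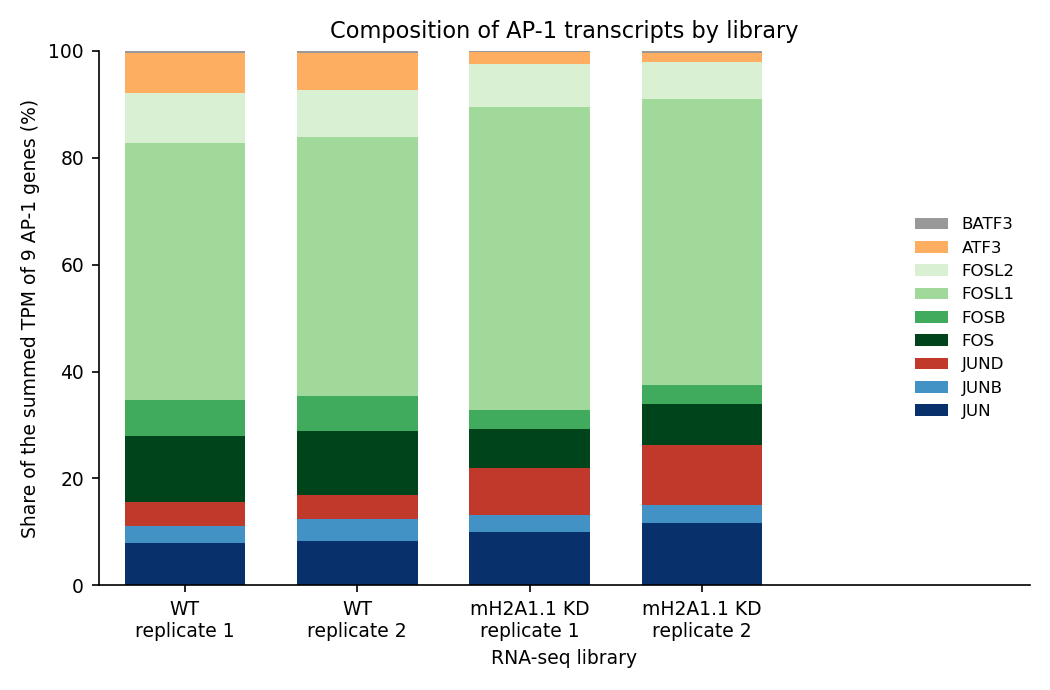
Share of each AP-1 gene in the summed TPM of the 9 genes (y axis, %), with 1 bar per RNA-seq library. FOSL1 is the largest segment in each bar, the JUND segment is 4.48% in WT and 8.85% and 11.3% in KD, and the ATF3 segment is 7.47% and 6.86% in WT and 2.18% and 1.82% in KD.

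GC content moved with the fold change among all genes tested, and JUND had the highest of the family. JUND exons held 69.9% G and C, the highest of the family, followed by JUNB at 64.9% and FOSL1 at 59.5%, and the lowest were ATF3 at 50.2% and BATF3 at 48.0%. The 252 tested genes with an exon GC content of at least 65% had a median log2 fold change of 0.54, with 0.21 in KD replicate 1 and 0.90 in KD replicate 2, and the 4612 genes under 45% had a median of -0.34. Among the 252 GC-rich genes, 7 (2.78%) had a higher log2 fold change than JUND. When smooth trends of each library on GC content and exon length were removed as offsets, JUND had a log2 fold change of 0.67 (standard error 0.102). With these offsets, JUNB was at -0.51 (0.161) and FOSL1 at -0.13 (0.113), so the sign of FOSL1 turned and JUNB moved from 0.01 to below 0.

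FOS, FOSB and ATF3 were lower with the offsets too, at log2 fold changes of -0.86, -1.14 and -1.85 (standard errors 0.107, 0.0958 and 0.107). FOSL2 was at -0.42 (0.102), JUN at 0.22 (0.121) and BATF3 at -0.32 (0.321). This fit called JUND, FOS, FOSB and ATF3, beside 5.36% of the genes tested (2.19% higher and 3.17% lower). JUND and JUN were then the only members above 0, and JUND exceeded the median of the others by 1.13.

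**Figure D4:**
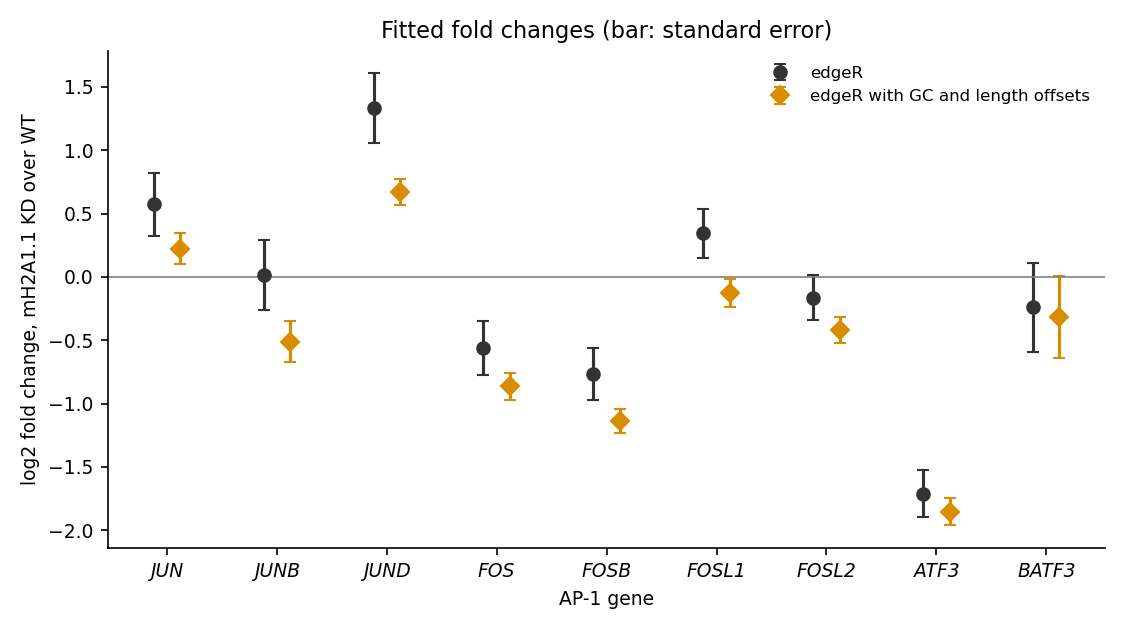
Log2 fold change of mH2A1.1 KD over WT for each AP-1 gene (y axis), with standard errors as bars, in edgeR (circles) and in edgeR with GC and length offsets (diamonds). JUND is at 1.33 and 0.67, ATF3 at -1.71 and -1.85, and FOSL1 at 0.34 and -0.13.

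The genes whose pattern over the 4 libraries was most like that of JUND were TENT5B, GSN and GPR157, among 9275 genes with a mean CPM of at least 10% of that of JUND. The measure was the Euclidean distance of centered log2 CPM, which was 0.0895 for TENT5B, 0.109 for GSN and 0.109 for GPR157. GSN, which encodes the actin-severing protein gelsolin, was at 144 and 144 CPM in WT and at 249 and 444 CPM in KD. TENT5B was at 11.8 and 12.9 CPM in WT and at 22.8 and 42.0 CPM in KD, and GPR157 at 12.4 and 13.0 CPM in WT and 21.7 and 39.2 CPM in KD. Like JUND, all were higher in KD replicate 2 than in KD replicate 1. Their exon GC contents were 62.6%, 53.0% and 53.5%.

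In WT cells, mH2A1.1 peaks lay at the start of 8 of the 9 members, within 500 bp of the transcription start site (TSS), and total mH2A1 peaks at 4. Among the tested genes, 46.9% of 10943 had an mH2A1.1 peak and 18.4% a total mH2A1 peak at the TSS. The peaks are built of bins of 3000 bp, carry no height, and differ widely in length. JUND lay under an mH2A1.1 peak of 84 kb (chr19:18225001-18309000) and a total mH2A1 peak of 42 kb (chr19:18264001-18306000), each of which covered the whole 1929 bp gene and extended well beyond it. The mH2A1.1 peak was 87 kb long at JUNB, 66 kb at FOSB, 111 kb at FOSL1 and 72 kb at FOSL2. It was 6 kb at FOS and 3 kb at JUN and at BATF3. The median length of mH2A1.1 peaks at tested genes was 12 kb, and 20.1% of them were over 40 kb, against 5 of the 8 at AP-1 members. These shares of the tested genes were not matched to the members by level or GC content. Most members were in the upper part of the tested genes by WT level, and the paper reports more mH2A1.1 at the TSS of more highly transcribed genes.

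ATF3 was the member without an mH2A1.1 peak at its annotated gene start, from which the nearest peak was 26667 bp away. ATF3 has further transcript starts inside the gene, and those at 212608670, 212608761 and 212608915 lay under an mH2A1.1 peak. In all, 10.8% of the ATF3 gene was covered by mH2A1.1 peaks and 43.3% by total mH2A1 peaks. Total mH2A1 peaks at the TSS were found for JUND, FOS, FOSB and FOSL1. At FOS the total mH2A1 peak (chr14:75279001-75288000) began 175 bp after the start and covered 94.9% of the gene. At FOSL2, JUNB and JUN the nearest total mH2A1 peaks were 3448, 5486 and 14048 bp from the start. Since the study kept peaks common to both antibodies, the counts were repeated for mH2A1.1 peaks that overlap a total mH2A1 peak. This left 6 members (all but JUN, BATF3 and ATF3) and 26.2% of the tested genes. Among these members, JUNB and FOSL2 had no total mH2A1 peak on the gene. Their long mH2A1.1 peaks met a total mH2A1 peak elsewhere.

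**Figure D5:**
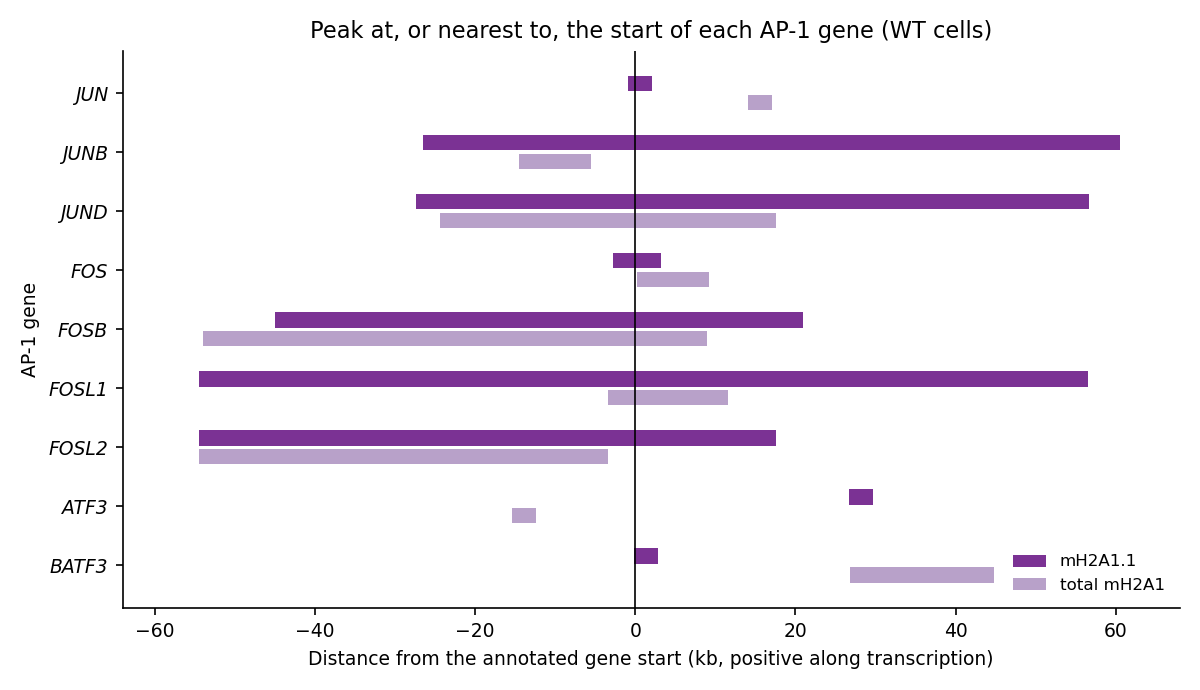
The mH2A1.1 peak and the total mH2A1 peak at, or nearest to, the start of each AP-1 gene in WT cells, as distance from the annotated gene start (x axis, kb, positive along transcription). JUNB, JUND, FOSB, FOSL1 and FOSL2 lie under mH2A1.1 peaks of 66 to 111 kb, FOS, JUN and BATF3 under peaks of 3 or 6 kb, and the nearest peak of ATF3 starts 26667 bp downstream.

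The length of the mH2A1.1 peak at the start varied among members of either direction. The 5 members under long peaks had log2 fold changes from -0.77 (FOSB) to 1.33 (JUND), with JUNB at 0.01, FOSL2 at -0.16 and FOSL1 at 0.34. Among all tested genes, the 1030 with an mH2A1.1 peak of over 40 kb at the TSS had a median log2 fold change of 0.38 and a median exon GC content of 58.6%, the 2598 with a shorter peak of 6 kb or more had 0.20 and 53.2%, the 1509 with 3 kb had -0.11 and 44.1%, and the 5806 without a peak had -0.12 and 43.9%. With GC and length offsets these medians were 0.02, 0.0067, 0.0034 and 0.0083. JUND and JUN lay above the median of their own class in both fits, and the other members lay below theirs. ATF3 is in the class without a peak by its annotated gene start only. The members were chosen with this contrast known, so these positions are description, and the part of peak length was not tested.

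An mH2A1.1 peak covered the promoters of JUND, JUN, FOS, FOSB, JUNB and FOSL2. Of these, the promoters of JUND, JUN, FOS and FOSB are shown as examples that hold related motifs at different places. They are the 250 bases before the start in RefSeq (GRCh38.p14), given 5′ to 3′ on the strand of the gene, with the motifs found by search in capitals: the CRE, TGACGTCA, its shorter form TGACGT, the JUN-type element TGACATCA, CCAAT, and TATAA. JUND is at chr19:18281623-18281872 on the minus strand, JUN at chr1:58784048-58784297 on the minus strand, FOS at chr14:75278578-75278827 on the plus strand, and FOSB at chr19:45467746-45467995 on the plus strand.
JUND: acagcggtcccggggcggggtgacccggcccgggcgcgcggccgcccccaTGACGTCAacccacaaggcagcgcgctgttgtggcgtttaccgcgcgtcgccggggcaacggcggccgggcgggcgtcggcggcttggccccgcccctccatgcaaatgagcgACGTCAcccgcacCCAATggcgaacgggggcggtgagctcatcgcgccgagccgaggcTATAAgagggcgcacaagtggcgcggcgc
JUN: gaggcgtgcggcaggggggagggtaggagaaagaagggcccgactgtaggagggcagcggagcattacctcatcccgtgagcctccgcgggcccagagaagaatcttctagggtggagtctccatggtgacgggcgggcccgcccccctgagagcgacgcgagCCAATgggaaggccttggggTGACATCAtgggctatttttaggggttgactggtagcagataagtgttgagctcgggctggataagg
FOS: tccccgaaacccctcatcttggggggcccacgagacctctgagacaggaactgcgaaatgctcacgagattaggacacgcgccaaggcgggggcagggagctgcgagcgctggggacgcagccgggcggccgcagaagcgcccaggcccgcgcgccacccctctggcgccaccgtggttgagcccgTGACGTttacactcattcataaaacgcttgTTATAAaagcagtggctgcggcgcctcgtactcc
FOSB: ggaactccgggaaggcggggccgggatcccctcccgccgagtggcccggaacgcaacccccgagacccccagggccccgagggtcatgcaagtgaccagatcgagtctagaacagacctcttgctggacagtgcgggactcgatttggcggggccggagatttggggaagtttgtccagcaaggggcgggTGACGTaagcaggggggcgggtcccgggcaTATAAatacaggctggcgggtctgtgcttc

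JUND held TGACGTCA from -200 to -193 and a second TGACGT, on the opposite strand, from -87 to -82, counting back from -1 at the base before the start. It also held CCAAT from -74 to -70 and TATAA from -29 to -25. JUN held TGACATCA from -67 to -60 and CCAAT from -87 to -83. FOS held TGACGT from -64 to -59 and FOSB from -60 to -55, each with a TATAA downstream, which in FOS runs on as TTATAA because matches on both strands join. Searched on both strands, TGACGTCA was found in 1.65% of 35116 RefSeq promoters of the same length, TGACGT, which every TGACGTCA contains, in 7.10%, TGACATCA in 2.37%, CCAAT in 32.0% and TATAA in 18.9%. The consensus AP-1 site TGANTCA, present in 6.57% of promoters, was not in these letters in the windows of the 7 members with an entry (JUN, JUNB, JUND, FOS, FOSB, FOSL2 and ATF3). ATF3 held TGACATCA from -123 to -116 at its upstream start, and FOSL2 held TGACGT from -66 to -61. JUNB held CCAAT from -67 to -63 and TATAA from -31 to -27. The JUND promoter had a GC content of 74.8%, against a median of 58% for all promoters. A match is a description of the sequence, and binding of AP-1 factors was not measured here.

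Other genes of the AP-1 pathway were followed in lists by role. The shares of all tested genes to set beside their counts are 23.2% at an unadjusted p under 0.05 in edgeR, 5.52% higher and 5.73% lower in DESeq2, and 2.19% higher and 3.17% lower with the GC and length offsets. Of 17 listed dimer partners, 11 were tested, with a median log2 fold change of 0.24, and neither edgeR nor DESeq2 called any (2 at an unadjusted p under 0.05 in edgeR). The lowest were ATF2, a CRE-binding partner of JUN, at 91.7 and 76.4 CPM in WT and 57.9 and 47.2 CPM in KD (log2 fold change -0.67, standard error 0.204), and BACH2 at -0.56. The highest were MAFG and MAFK, small MAF proteins, at 0.50 and 0.40. With the offsets none was called either, ATF2 was at -0.13, BACH2 at -0.58, MAFG at 0.13 and MAFK at -0.11, so MAFK changed sign. ATF4, MAFF and BACH1 lie on chromosomes 21 and 22 and were not tested.

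Upstream of AP-1, 16 of 24 listed kinases and ternary complex factors were tested, with a median of 0.10. Of the 15 with an adjusted p, DESeq2 called 2 higher and 2 lower, edgeR called 0 of 16 (6 at an unadjusted p under 0.05), and the fit with offsets called 1 higher and 1 lower. RPS6KA2, which encodes a ribosomal S6 kinase activated by ERK, was at 22.5 and 20.5 CPM in WT and at 42.1 and 69.4 CPM in KD (log2 fold change 1.34, standard error 0.275), and was also called with the offsets, at 0.98. MAP2K2, an ERK-activating kinase, was at 0.72, and at 0.23 with the offsets. ELK3 and ELK4, the ternary complex factors that act with SRF at the FOS promoter, were at -0.82 and -0.67, and DESeq2 called both. ELK3 was at 238 and 237 CPM in WT and at 164 and 103 CPM in KD, so its groups did not overlap. With the offsets ELK3 was called at -0.61, whereas ELK4 was at -0.25 and was not called.

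Of 13 negative regulators, 11 were tested, with a median of -0.13. None was called by either tool (10 had an adjusted p in DESeq2, and 1 was at an unadjusted p under 0.05 in edgeR), while the fit with offsets called DUSP1, DUSP5 and ZFP36 lower, 3 genes that lie outside the naming rule. DUSP6, an ERK phosphatase, was at 316 and 312 CPM in WT and at 209 and 227 CPM in KD (log2 fold change -0.53, standard error 0.172), and DET1, which serves in JUN degradation, was at -0.44. MEN1, whose product menin binds JUND, was at 57.8 and 58.4 CPM in WT and at 71.9 and 83.1 CPM in KD (log2 fold change 0.41, standard error 0.182). FBXW7, a ubiquitin ligase component that targets JUN, was at 0.15. With the offsets DUSP6 was at -0.52, DET1 at -0.35, MEN1 at 0.01 (0.0131) and FBXW7 at 0.48, and none of these was called.

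Of 19 listed immediate early genes other than AP-1, 16 were tested, with a median of 0.03. Of the 15 with an adjusted p, DESeq2 called SRF higher and NR4A1 and NR4A2 lower, and edgeR called 0 of 16 (7 at an unadjusted p under 0.05). The fit with offsets called 0 higher and 5 lower, which were NR4A1, NR4A2 and, outside the naming rule, EGR1, ZFP36 and DUSP1 at -0.74, -0.81 and -0.64. The nuclear receptor gene NR4A2 was at 94.7 and 88.2 CPM in WT and at 24.5 and 19.3 CPM in KD, a log2 fold change of -2.03 (standard error 0.209). NR4A1 was at 73.8 and 64.6 CPM in WT and at 14.9 and 21.7 CPM in KD, a log2 fold change of -1.97 (standard error 0.245). Both lay below ATF3 at -1.71. SRF, which encodes serum response factor, was at 0.70 and the stress gene GADD45B at 0.78, and with the offsets they were at 0.23 and 0.26 and not called. SRF, DUSP1 and ZFP36 stand in more than 1 of the lists.

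Of 23 listed AP-1 target genes, 14 were tested, with a median of 0.08. Of the 11 with an adjusted p, DESeq2 called 1 lower and 0 higher, and edgeR called 0 of 14 (2 at an unadjusted p under 0.05). The called gene was IL6, the cytokine interleukin 6, at 101 and 93.6 CPM in WT and 50.7 and 58.0 CPM in KD (log2 fold change -0.85, standard error 0.185). CXCL8, which encodes the chemokine interleukin 8, was at 27.6 and 22.3 CPM in WT and at 8.49 and 6.61 CPM in KD (log2 fold change -1.68, standard error 0.261). DESeq2 gave CXCL8 no adjusted p, and the fit with offsets called both genes and no other of the list, with IL6 at -0.79 and CXCL8 at -0.97. The highest were EZR, which encodes ezrin, at 0.42 and IL1A, at between 0 and 14 counts per library, also at 0.42, and with the offsets they were at 0.21 and 0.79. HMOX1, LIF and TIMP1 lie on the chromosomes left out.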

How the data were processed

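Total RNA-seq counts per gene were deposited by the authors, who aligned reads with STAR 2.5.1 to GRCh38, filtered on a mapping quality of 10, removed duplicates and counted with HTSeq; the annotation is not given in the sources used here. Peak positions came from enrichment over input called on single libraries, and the deposited score is 0 for all peaks. Identifiers were matched to GENCODE 44 (23061 of 23167). Counts of 10963 genes were tested with edgeR 4.0.16 (TMM, filterByExpr, quasi-likelihood test, Benjamini-Hochberg adjustment) in R 4.3.3, without chromosomes 21, 22 and X, and calls required more than a 1.5-fold change with an adjusted p under 0.1. Standard errors were taken from the F statistic. DESeq2 1.42.0 was an alternative. The method was tested on simulated data with the same biological coefficient of variation (0.166) for all genes and libraries and no GC trend. There edgeR recovered 64% of log2 changes of 1 and 100% of 2, and DESeq2 56% and 96%. The measured libraries differ from this setting, since the KD pair varied more than the WT pair and GC content moved with the fold change. These shares therefore do not give the recovery in the measured libraries, where edgeR called 0 genes. GC and length trends were fitted with a lowess span of 0.3.

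The members, lists and tests were chosen with earlier results of these data known. Besides the members and MACROH2A1, the rule named from each pathway list the genes called by edgeR or else the 2 highest and 2 lowest log2 fold changes, and the 3 genes most like JUND. Outside it are the cell markers, HOOK2, pathway genes called only with offsets and those on chromosomes left out. The marker lists covered mesenchymal-like lines (median log2 fold change 0.10), luminal breast (0.15), leukocytes (0 of 4 tested) and endothelium (1 of 3 tested, at 0.65). The input and the promoter capture samples were not analysed here.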

Additional observations from a re-analysis of the deposited data

How the results depend on the processing

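The number of genes called between mH2A1.1 KD and WT was 0 with edgeR, on the whole table and with RLE size factors too. It was 874 with DESeq2, 945 with DESeq2 on the whole table, 2139 without the filter on low counts, 588 with GC and length offsets, 448 with these offsets in DESeq2, and 23 with libraries thinned to the same depth. The AP-1 members called numbered 0 with edgeR and, in that order, 3, 3, 4, 4, 4 and 1, and the genes of the pathway lists 7, 8, 11, 10, 10 and 2. With a library left out, between 2 and 4744 genes, 0 and 4 members and 1 and 25 pathway genes were called, where a lone library is assumed to vary like the other group. The most genes were called without KD replicate 1 and the most members without KD replicate 2 (JUND, FOS, FOSB and ATF3). JUN, JUND and ATF3 were called without KD replicate 1, ATF3 without WT replicate 2, and no member without WT replicate 1.

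The log2 fold change of JUND was above 0 in all 15 settings. It was 0.67 with the offsets in edgeR, in DESeq2 and with the replicate block, and between 0.91 (without KD replicate 2) and 1.68 (without KD replicate 1) with a library left out. Its difference from the median of the other members was 1.13 with the offsets in edgeR, 1.14 in DESeq2 and 1.13 with the block, and between 1.30 and 1.62 with a library left out. ATF3 stayed between -1.86 and -1.63, FOSB between -1.14 and -0.57, FOS between -0.87 and -0.33, FOSL2 between -0.42 and -0.08 and JUN between 0.22 and 0.86. JUNB (-0.52 to 0.30), FOSL1 (-0.13 to 0.50) and BATF3 (-0.53 to 0.20) took both signs. The cause of these differences was not tested.

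Replicate numbers are shared between WT and KD, but the deviations of same-numbered libraries correlated at only 0.25 and 2 pairs do not show a pairing. With the replicate block 2207 genes, 3 members (JUND, FOSB and ATF3) and 11 pathway genes were called, and with the replicate block and the offsets 867, 4 and 10. The members with an mH2A1.1 peak at the start numbered between 6 and 9 and those with a total mH2A1 peak between 3 and 5 over the other windows, starts and overlap rules. A stricter peak threshold could not be tried with scores of 0. Depth limits BATF3 most, at 12 counts in KD replicate 2.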
